A study of Mus musculus with 6 samples.

Results

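Nerve cells receive most excitatory input on dendritic spines, where a protein-dense layer under the membrane, the postsynaptic density, holds receptors in place. In that layer the Dlg scaffolds bind receptor tails and, through their guanylate kinase domain, the Dlgap linkers. Dlgap proteins bind Shank proteins, Shank proteins bind Homer proteins, and the calcium-activated kinase encoded by Camk2a docks beside the receptors. In rodent forebrain Dlg3, also called SAP102, is known as an early scaffold, while Dlg4, also called PSD95, and Camk2a are known to accumulate later in postnatal life.

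The genes described here are 9 postsynaptic density scaffold and kinase genes, Dlg2, Dlg3, Dlg4, Dlgap1, Shank1, Shank2, Shank3, Homer1 and Camk2a. They were listed by name, with earlier results of these data already known. Every probe set annotated to exactly 1 gene symbol among them was taken, which gave 27 of 34945 probe sets in all and covered 8 of the 9 genes. No probe set carried the symbol Shank2, so that gene is not analysed here. Dlgap1, Homer1 and Camk2a had 6 probe sets each, Dlg2 and Dlg4 had 3 each, and Dlg3, Shank1 and Shank3 had 1 each. Their signal was read on 6 Affymetrix arrays of RNA from corticothalamic projection neurons, deep-layer cortical cells that send axons to the thalamus, with 2 arrays per stage. All mice were wild-type C57BL/6. The E18 embryos had green fluorescent microspheres placed in the thalamus at E17.5 and gave cortex at E18.5, the P3 mice were injected at P1 and the P6 mice at P4, and the labelled neurons were purified by fluorescence-activated cell sorting. The labels name no control group, and they do not say how many animals were pooled. Whether a stage's pair of arrays stems from separate sorts is not said either. A p-value here therefore reflects no more than how far arrays lay apart within the stages. The fit gave each probe set 1 spread shared by all 3 stages, so a comparison of 2 stages also carries the spread of the other. The SD of the difference within a pair was 0.13 at E18, 0.57 at P3 and 0.46 at P6. The stages thus did not have equal spread, and the close E18 pair lowered the shared one. The time from injection to collection was shorter for E18 than for the later stages and cannot be told apart from stage. Values are log2 expression units.

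The arrays differed in ways that touch the members. Across probe sets the E18 pair correlated at 0.998, the P3 pair at 0.961 and the P6 pair at 0.976. 18S ribosomal RNA was high on 2 arrays, P3 replicate 2 (14.22) and P6 replicate 1 (13.92), while the remaining 4 read 11.32 to 11.83. Actb probe sets at the 3' end exceeded those at the 5' end by 0.56 and 0.58 on the E18 arrays, 1.19 and 1.76 on the P3 arrays, and 1.06 and 0.82 on the P6 arrays. The labelled cell type was checked against its markers: all 10 corticothalamic and layer 6 genes were higher at P3 and at P6 than at E18. Genes of cycling cells went the other way, with 9 of 9 measured genes lower at P3 and at P6, and a summed linear signal of 627 to 714 on the P3 and P6 arrays against 36870 and 37890 at E18. Of the radial glia and intermediate progenitor markers, 8 of 10 were lower at both later stages, with a summed signal of 1502 to 2307 against 34880 and 35040 at E18. Astrocyte markers were lower for 6 of 10 genes at both stages, and microglial markers for 6 of 10 at P3 and 0 at P6, with summed microglial signals of 1985 and 6716 on the P6 arrays against 8310 and 8211 at E18. The part that these other cells play in the members' changes was not tested. In sorted bulk samples fewer cells of a type and less RNA per cell cannot be told apart.

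Promoter stretches are shown for 3 members that stand for the patterns described below. Homer1 rose early, Shank3 reached the test's threshold at P6, and Dlg4 was called in no comparison. The sequences come from RefSeq on GRCm38.p6, and stretches were taken for 6 of the 9 members, with 13 transcript starts. No stretch was taken for Shank1, Shank2 and Camk2a, which does not mean that RefSeq lists no start for them. Each stretch is the 250 bases before the most upstream start in the promoter set used, on the plus strand. For Homer1 and Dlg4 that start is also the first base of the gene in RefSeq. For Shank3 it is 89499608, inside the gene's RefSeq extent of 89493013 to 89560261. The Shank3 stretch therefore lies within the gene and not upstream of it. Capitals mark the core of the cyclic AMP response element, called the CRE core here (TGACG, or CGTCA on the other strand) and the GC box (GGGCGG, or CCGCCC on the other strand).
Homer1, chr13:93303507-93303756: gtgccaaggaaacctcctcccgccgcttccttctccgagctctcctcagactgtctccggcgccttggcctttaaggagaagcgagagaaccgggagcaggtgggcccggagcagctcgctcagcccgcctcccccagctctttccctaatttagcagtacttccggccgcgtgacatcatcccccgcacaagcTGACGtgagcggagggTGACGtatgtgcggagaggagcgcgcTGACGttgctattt
Shank3, chr15:89499358-89499607: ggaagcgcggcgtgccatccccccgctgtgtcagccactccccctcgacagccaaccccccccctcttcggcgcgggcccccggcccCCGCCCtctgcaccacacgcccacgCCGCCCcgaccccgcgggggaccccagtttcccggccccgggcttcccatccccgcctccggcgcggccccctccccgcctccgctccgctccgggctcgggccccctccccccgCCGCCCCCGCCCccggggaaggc
Dlg4, chr11:70016953-70017202: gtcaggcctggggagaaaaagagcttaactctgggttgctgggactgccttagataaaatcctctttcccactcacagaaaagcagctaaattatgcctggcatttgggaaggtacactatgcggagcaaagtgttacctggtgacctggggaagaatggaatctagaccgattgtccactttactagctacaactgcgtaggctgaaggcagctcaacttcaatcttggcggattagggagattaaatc

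The Homer1 stretch held 3 CRE cores, and 0.688% of 32851 mouse promoter stretches of this length held 3 or more. The Shank3 stretch held 4 GC boxes, and 4.09% of the stretches held 4 or more. Its bases were 82.4% G or C. The Dlg4 stretch held 0 of either motif and was 47.2% G or C. CRE cores occurred in 17.8% of all stretches and GC boxes in 32.7%. At the other starts of these genes, Homer1 had 0 CRE cores at its second start, and Dlg4 had 1 CRE core and 1 GC box at the third. A match describes the letters of a stretch and not a bound site.

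Between E18 and P3 the postsynaptic genes were mostly higher at P3, with Homer1 called on the most probe sets. Of the 27 probe sets, 9 (33.3%) were called higher at P3 and 0 lower by limma with Benjamini-Hochberg adjustment, at an adjusted p below 0.05. Over all 34945 probe sets 28.6% were called, 11.5% higher and 17.1% lower. Both P3 arrays stood above both E18 arrays for 25 of the 27 probe sets, where 44.2% of all probe sets did so, and below them for 1, Camk2a 1443876_at, where 33.7% did. The median change of the 27 probe sets was 0.94 log2 units, against 0.11 for all probe sets. That median was 0.53 without P3 replicate 2, 0.53 with the 18S level as a covariate and 0.18 with the Actb 3' excess as a covariate. With each gene represented by its brightest probe set, the one with the highest mean over the 6 arrays, 3 of 8 genes were called higher and all 8 had a positive change, where 30.4% of all 18193 genes were called, 12.1% higher. The median over these 8 was 0.91, while the 10 pan-neuronal genes, of which 9 were called higher, had a median of 2.04. That difference between the lists was not tested.

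Between E18 and P6, 7 of the 27 probe sets (25.9%) were called higher and 0 lower, against 21.1% of all probe sets called, 8.76% higher and 12.4% lower. Both P6 arrays stood above both E18 arrays for 24 of the 27, where 44.5% of all probe sets did so, and below them for 0, where 31.2% did. By gene, the brightest probe sets of Dlg2, Dlg3, Dlgap1, Shank3 and Homer1 were called, with Dlg2 the largest of these at 4.95-fold, where 22.5% of all genes were called, 10.2% higher. Both comparisons share the E18 arrays. The counts moved with the arrays used, and the share over all probe sets moved with them. With the E18 arrays averaged into 1 sample, 2 of the 27 were called for P3 and 2 for P6, where 8.86% and 8.87% of all probe sets were called. Leaving out E18 replicate 1 or 2 left 1 and 2 for P3 (9.23% and 8.73% of all) and 1 and 1 for P6 (9.08% and 8.77%). Leaving out P3 replicate 1 gave 14 calls for P3 (47.2%), leaving out either P3 array gave 12 for P6 (31.4%), and leaving out P6 replicate 1 gave 2 for P6 (13.6%). The hybridization control level as a covariate left 1 for P3 (9.75%) and 2 for P6 (10.9%). By brightest probe set it ended the P3 calls of Homer1, Dlgap1 and Shank1 and the P6 calls of Dlg2, Dlg3, Dlgap1 and Shank3. The P6 call of Homer1 stayed. The hybridization controls read 9.59 and 9.25 on the E18 arrays, 11.72 and 11.59 on the P3 arrays, and 13.01 and 9.85 on the P6 arrays. Between E18 and P3 this level cannot be told apart from stage. Within a stage it lay far apart only at P6, so the adjustment of the P3 changes rests mostly on that pair. The P3 change of Homer1 went from 1.70 ± 0.24 to 1.58 ± 0.32 log2 units (SE) with this covariate.

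**Figure D1:**
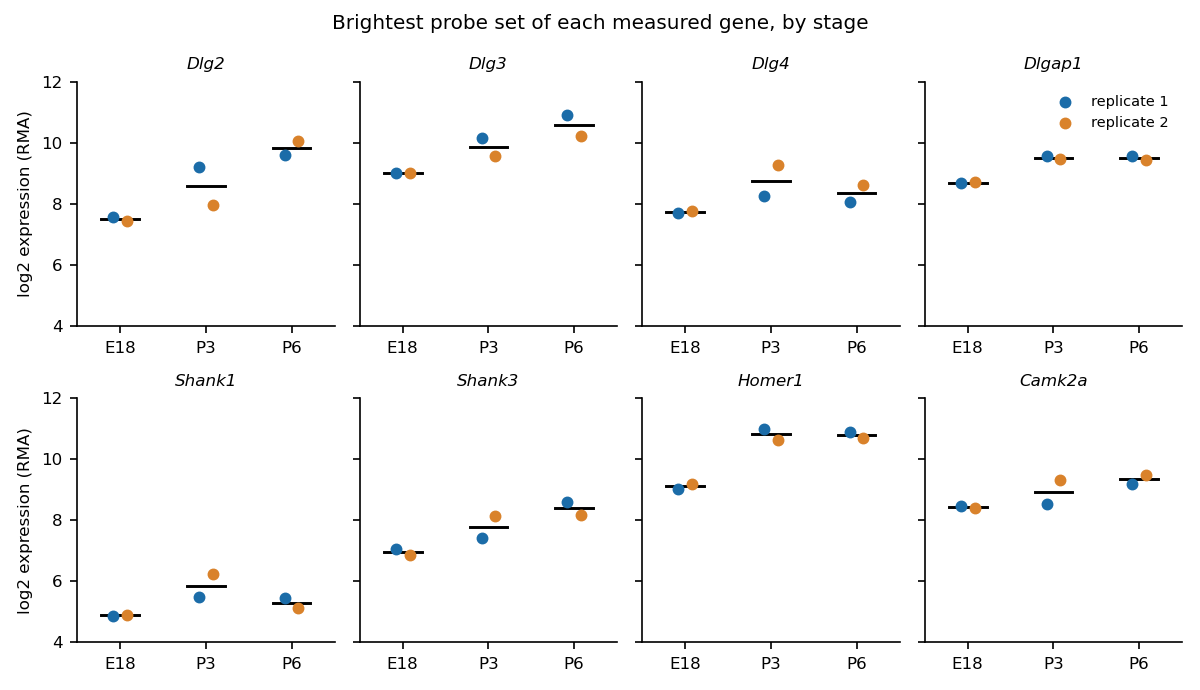
Log2 expression of the brightest probe set of each of the 8 measured genes on every array, by stage; points are arrays, coloured by replicate, and bars are stage means of 2 arrays. Homer1 reached its later level by P3. Dlg2, Dlg3, Shank3 and Camk2a had their highest means at P6, although the P3 and P6 points of Camk2a overlapped. The P3 points of Dlg2, Dlg4, Shank1, Shank3 and Camk2a lay furthest apart.

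The Dlg genes encode membrane-associated guanylate kinases that anchor NMDA receptors through PDZ domains. Dlg2, also called PSD93, lies on chromosome 7 at 90476188 to 92449246 (GRCm38). Its brightest probe set, 1437927_at, read 7.57 and 7.44 on the E18 arrays, 9.19 and 7.97 on the P3 arrays, and 9.58 and 10.05 on the P6 arrays. The P6 arrays were above all others, and the P3 arrays lay between the stages and far from each other. At P6 it was higher than at E18 by 2.31 ± 0.41 log2 units (SE; limma adjusted p = 0.00869). At P3 the change was 1.07 ± 0.41 and was not called (adjusted p = 0.0926), and the P3 arrays decided its size: it was 1.68 and called without P3 replicate 2, and 0.46 and not called without P3 replicate 1 (adjusted p = 0.184). The P6 call was lost without E18 replicate 2, P6 replicate 1 or P6 replicate 2, at adjusted p of 0.0541, 0.051 and 0.0658.

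The other Dlg2 probe sets did not follow the brightest. 1421199_at read 5.10 and 5.27 on the E18 arrays, 6.00 and 7.19 on the P3 arrays, and 6.05 and 6.50 on the P6 arrays, and was called at P3 (1.41 ± 0.38, adjusted p = 0.0351) but not at P6 (1.09 ± 0.38, adjusted p = 0.0918). 1421200_at was highest on P3 replicate 2, at 7.48, against 5.73 on P3 replicate 1, and was not called at either stage. The platform annotation does not say which transcripts each probe set reads.

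Dlg3, on the X chromosome at 100767411 to 100818410, had 1 probe set. It read 9.02 and 9.01 on the E18 arrays, 10.14 and 9.58 on the P3 arrays, and 10.89 and 10.23 on the P6 arrays. Its stages did not overlap and stood in order of age. The P6 level was 2.92-fold that of E18 (1.54 ± 0.32 log2 units, limma adjusted p = 0.0145), while the P3 change of 0.84 ± 0.32 was not called (adjusted p = 0.0858). Quantile normalization made the P3 change 1.31 and called it. The P6 call was lost without E18 replicate 1, E18 replicate 2 or P6 replicate 1, at adjusted p of 0.106, 0.111 and 0.0819.

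Dlg4, on chromosome 11 at 70017203 to 70045535, encodes the scaffold most used to mark mature excitatory synapses. None of its 3 probe sets was called in any comparison. The brightest, 1419580_at, read 7.69 and 7.76 on the E18 arrays, 8.25 and 9.26 on the P3 arrays, and 8.05 and 8.62 on the P6 arrays. All later arrays lay above the E18 arrays, and the P3 and P6 arrays overlapped. The change was 1.03 ± 0.38 at P3 (95% interval 0.14 to 1.93, limma adjusted p = 0.0793) and 0.61 ± 0.38 at P6 (interval -0.28 to 1.51, adjusted p = 0.288). Without P3 replicate 1 the P3 change was 1.53 and was called.

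A further Dlg4 probe set followed the arrays with high 18S signal. 1419581_at had 8.82 (P3 replicate 2) and 8.96 (P6 replicate 1), while P3 replicate 1 had 6.55, P6 replicate 2 had 6.43 and the E18 arrays had 6.20 and 6.17. The mean of those 2 arrays exceeded that of the other later arrays by 2.40 log2 units. 1460261_at showed 0.99 and 1419580_at 0.22 by the same measure. Among all probe sets 1.12% exceeded 1 log2 unit in this direction, and 3 of the 27 did: this Dlg4 probe set, Dlgap1 1440639_at at 1.97 and Dlg2 1421200_at at 1.13. None of these 3 was among the calls. How far the 18S level bears on them was not tested.

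**Figure D2:**
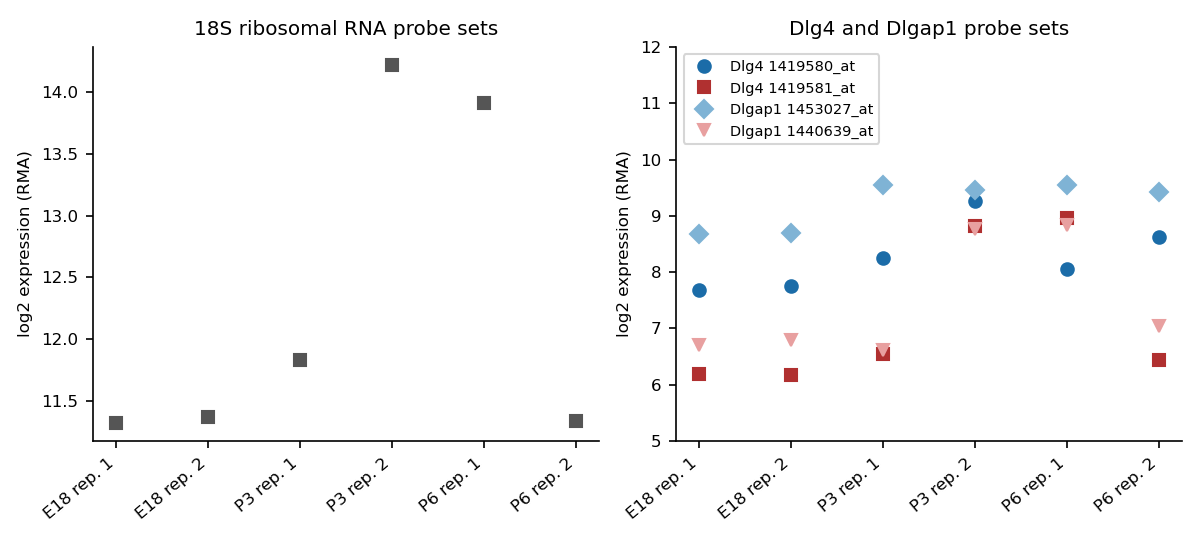
Log2 expression on each of the 6 arrays of the 18S ribosomal RNA probe sets (left) and of 2 probe sets each of Dlg4 and Dlgap1 (right). P3 replicate 2 and P6 replicate 1 were high in 18S and in Dlg4 1419581_at and Dlgap1 1440639_at, while Dlgap1 1453027_at read alike on all 4 later arrays.

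Dlgap1 encodes the linker, also called GKAP or SAPAP1, between Dlg and Shank proteins. It lies on chromosome 17 at 69969073 to 70821413. The brightest of its 6 probe sets, 1453027_at, read 8.68 and 8.70 on the E18 arrays, 9.56 and 9.46 on the P3 arrays, and 9.55 and 9.43 on the P6 arrays. The later arrays were close to each other and above E18. It was higher by 0.82 ± 0.22 log2 units at P3 (limma adjusted p = 0.0334) and by 0.80 ± 0.22 at P6 (adjusted p = 0.0412). Both calls were lost without E18 replicate 1 or 2. The changes hardly moved, at 0.80 and 0.83 for P3 and 0.79 and 0.81 for P6, while the SE became larger. The call for P6 was also lost without P6 replicate 1 or 2 (adjusted p of 0.114 and 0.0645).

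A further Dlgap1 probe set, 1429105_at, read 7.61 and 7.67 on the E18 arrays, 10.13 and 8.81 on the P3 arrays, and 7.95 and 8.36 on the P6 arrays. It was 3.56-fold higher at P3 (1.83 ± 0.43, limma adjusted p = 0.0226), and its change between P3 and P6 minus that between E18 and P3 was -3.15 ± 0.75 log2 units (adjusted p = 0.0412). 1436076_at read 8.90 and 8.48 at P3, against 7.51 and 7.60 at E18, and was called higher (1.13 ± 0.25, adjusted p = 0.0191). At P6 it read 8.28 and 7.93 and was not called against E18 (adjusted p = 0.178). 1438098_at, 1440639_at and 1443508_at were not called. 1440639_at had 8.76 (P3 replicate 2) and 8.83 (P6 replicate 1), and 6.61 to 7.03 elsewhere.

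Shank proteins lie deeper in the postsynaptic density and tie Dlgap to Homer and to actin. Shank3, on chromosome 15 at 89493013 to 89560261, read 7.05 and 6.85 on the E18 arrays, 7.41 and 8.14 on the P3 arrays, and 8.61 and 8.18 on the P6 arrays. The stages did not overlap, although the P3 replicate 2 and P6 replicate 2 arrays nearly met. At P6 it was 2.73-fold higher than at E18 (1.45 ± 0.31, limma adjusted p = 0.0172), and at P3 the change was 0.83 ± 0.31 (adjusted p = 0.0849). The P6 call was lost without E18 replicate 1, E18 replicate 2 or P6 replicate 1 (adjusted p of 0.0909, 0.145 and 0.11), and without P3 replicate 1 the P3 change was 1.19 and was called. Its promoter stretch, shown above, was the richest in GC boxes of the 13 listed for these genes.

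Shank1, on chromosome 7 at 44308916 to 44360094, was dim, with a mean in the lowest 25% of probe sets. It read 4.87 and 4.91 on the E18 arrays, 5.49 and 6.22 on the P3 arrays, and 5.44 and 5.11 on the P6 arrays. The P3 arrays were highest. It was higher at P3 by 0.97 ± 0.26 (limma adjusted p = 0.0332) and not called at P6 (0.39 ± 0.26, adjusted p = 0.316). Leaving out any array but P3 replicate 1 ended the P3 call, with adjusted p from 0.0604 to 0.144, and the value was 0.60 without P3 replicate 2.

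Homer1 encodes an adaptor whose EVH domain binds Shank and metabotropic glutamate receptors. Long forms assemble through a coiled coil, and a short form induced by neuronal activity lacks it. The gene lies on chromosome 13 at 93303757 to 93405129. Its brightest probe set, 1437363_at, read 9.04 and 9.19 on the E18 arrays, 11.00 and 10.63 on the P3 arrays, and 10.88 and 10.71 on the P6 arrays. The later arrays lay between 10.63 and 11.00, close to each other and above both E18 arrays.

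Homer1 1437363_at was 3.25-fold higher at P3 than at E18 (1.70 ± 0.24 log2 units, limma adjusted p = 0.00322) and 3.21-fold higher at P6 than at E18 (1.68 ± 0.24, adjusted p = 0.0033). P6 minus P3 was -0.02 ± 0.24 (95% interval -0.58 to 0.55). The change between P3 and P6 minus that between E18 and P3 was -1.72 ± 0.41 log2 units (adjusted p = 0.043). Leaving out E18 replicate 1 ended both stage calls narrowly, at 1.63 for P3 (adjusted p = 0.0537) and 1.61 for P6 (adjusted p = 0.0568). The hybridization control level as a covariate ended the P3 call as well (1.58, adjusted p = 0.0531). Of 19 other settings, 17 kept the P3 call and 18 the P6 call, which was more than for any other member.

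Further Homer1 probe sets were also called at P3. 1439662_at read 9.80 and 9.05 at P3, against 7.64 and 7.56 at E18, and 1425710_a_at read 7.42 and 7.77 at P3, against 5.86 and 5.69 at E18. Both were called at P3 (1.83 ± 0.30 and 1.82 ± 0.25, limma adjusted p = 0.00595 and 0.00293) and at P6 (1.47 ± 0.30 and 1.46 ± 0.25, adjusted p = 0.0138 and 0.00703). The difference between the intervals was -2.18 log2 units for each and was also called (adjusted p = 0.0412 and 0.0245). 1436387_at was called at P3 (1.08 ± 0.32, adjusted p = 0.044) and not at P6 (0.46 ± 0.32). 1421768_a_at and 1425671_at were not called, and 1425671_at was dim, with 3.98 to 4.44 across the arrays. The annotation does not tell which probe set reads the short form.

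Camk2a, on chromosome 18 at 60925307 to 60988152, encodes the alpha subunit of calcium and calmodulin-dependent kinase II, a dodecameric kinase that keeps activity after a calcium pulse by phosphorylating itself. None of its 6 probe sets was called in any comparison. The brightest, 1457311_at, read 8.46 and 8.42 on the E18 arrays, 8.54 and 9.32 on the P3 arrays, and 9.20 and 9.47 on the P6 arrays. P3 replicate 1 lay beside the E18 arrays and the other later arrays above them. The change was 0.49 ± 0.31 at P3 (95% interval -0.24 to 1.23, limma adjusted p = 0.246) and 0.90 ± 0.31 at P6 (interval 0.16 to 1.63, adjusted p = 0.0881).

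Leaving out P3 arrays mattered for Camk2a. Without P3 replicate 1 it was called at P3 (0.88) and at P6 (adjusted p = 0.014), and without P3 replicate 2 at P6 (adjusted p = 0.0144). 1437125_at read 7.10 and 7.56 at P3, against 6.66 and 6.79 at E18, a change of 0.61 ± 0.25 (adjusted p = 0.104). 1441734_at differed from E18 by 0.34 ± 0.22 at P3 and 0.36 ± 0.22 at P6, and the 3 dimmest probe sets by -0.18 to 0.37 at P3 and by -0.01 to 0.40 at P6, none of them called.

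**Figure D3:**
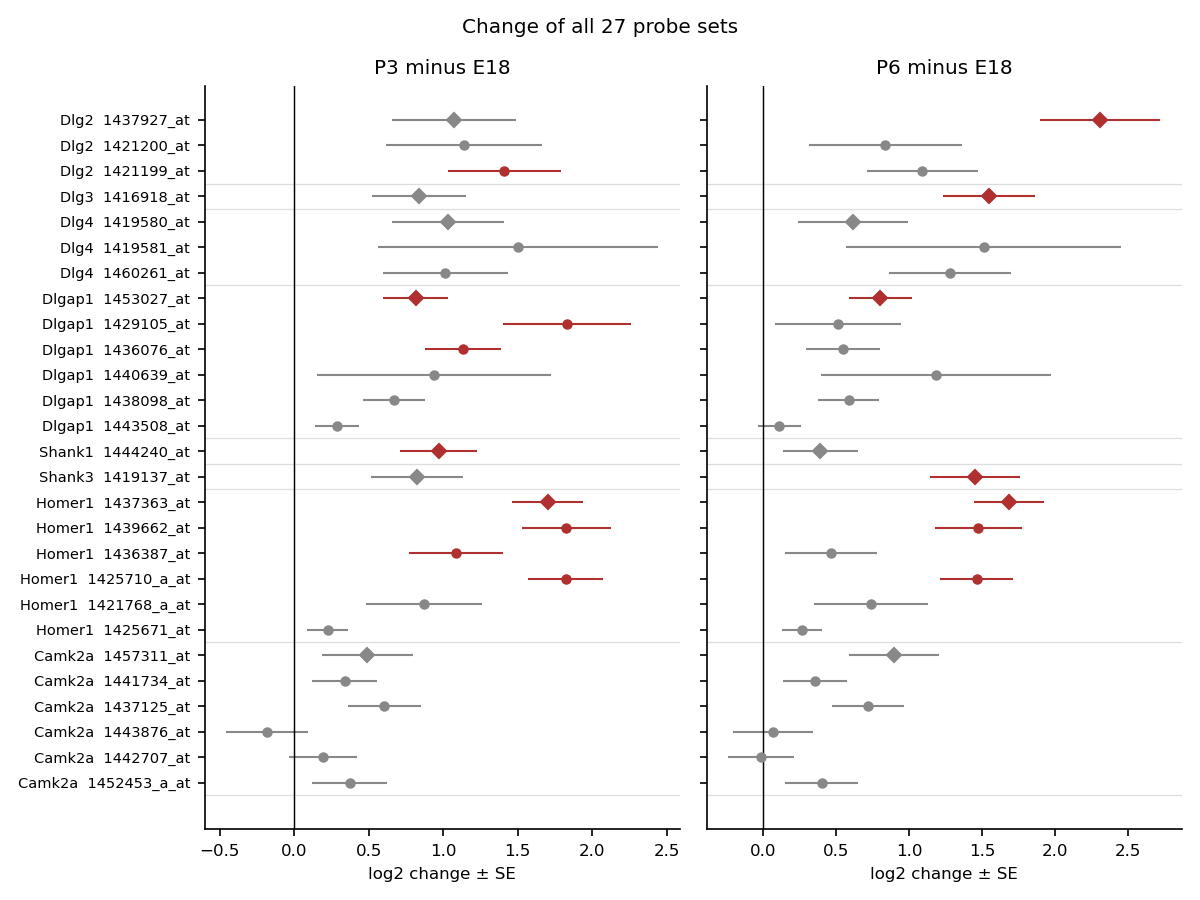
Log2 change of all 27 probe sets at P3 (left) and P6 (right) relative to E18, with SE bars; diamonds mark each gene's brightest probe set and red marks an adjusted p below 0.05. Homer1 had 4 called probe sets at P3 and 3 at P6, and Dlg4 and Camk2a had 0 at both.

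Between P3 and P6 limma called 0 of the 27 probe sets, as it called 0 of all 34945 (0%). At an unadjusted p under 0.05 there were 2 of 27 and 5392 of 34945. The 2 were Dlg2 1437927_at, with a change of 1.24 ± 0.41, and Dlgap1 1429105_at, with -1.32 ± 0.43 (limma adjusted p = 0.255 and 0.248). Both P6 arrays stood above both P3 arrays for 3 of the 27 probe sets and below them for 4, where 21.9% and 18.4% of all probe sets did so. The brightest probe sets of Dlg2, Dlg3 and Shank3 were higher on both P6 arrays than on both P3 arrays, and that of Shank1 was lower on both. Dlg3 differed by 0.70 ± 0.32, Shank3 by 0.62 ± 0.31 and Shank1 by -0.58 ± 0.26 (adjusted p of 0.345, 0.383 and 0.343). Without P3 replicate 1, 1 probe set was called higher and 3 lower, with Dlg2 at 1.85 and Shank1 at -0.95, where 18% of all probe sets were called.

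The difference between the intervals was below 0 for most members. The change in the second interval minus that in the first was positive for 2 of 27 probe sets, with a median of -0.76, against -0.06 for all probe sets. With the Actb 3' excess as a covariate the median turned to 0.11, and without P3 replicate 1 it was -1.30. It was called below 0 for 4 of 27, 3 of Homer1 and 1 of Dlgap1, and above 0 for 0, where 12.1% of all probe sets were called, 3.26% below 0 and 8.87% above. The P3 arrays enter both intervals, so an unusual P3 value moves this measure in 1 direction. Without E18 replicate 1, E18 replicate 2 or P6 replicate 1 the count was 0, where 3.39%, 3.12% and 7.90% of all probe sets were called. Without P6 replicate 2 it was 1 (6.34% of all), and without P3 replicate 1 it was 9 (36.4%).

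**Figure D4:**
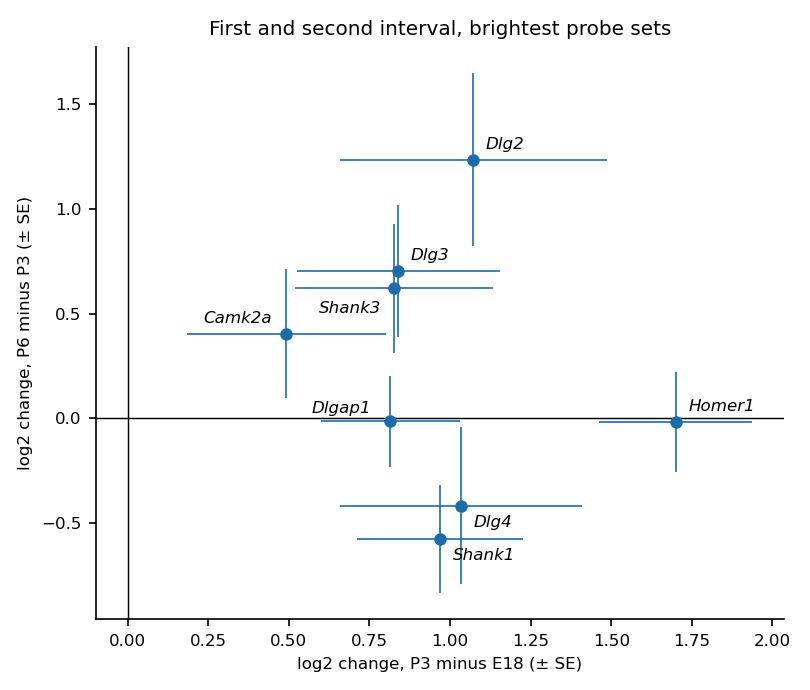
Log2 change of the brightest probe set of each gene between E18 and P3 (horizontal) and between P3 and P6 (vertical), with SE bars on both. Homer1 and Dlgap1 lie at 0 on the vertical axis, and Dlg2 lies highest at 1.24.

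Leaving aside the arrays with high 18S, P3 replicate 1 stood above the E18 mean by 1.88 log2 units for Homer1, 1.68 for Dlg2, 1.12 for Dlg3, 0.86 for Dlgap1, 0.60 for Shank1, 0.53 for Dlg4, 0.46 for Shank3 and 0.10 for Camk2a. P6 replicate 2 stood above it by 2.54 for Dlg2, 1.59 for Homer1, 1.23 for Shank3, 1.22 for Dlg3, 1.03 for Camk2a, 0.90 for Dlg4, 0.74 for Dlgap1 and 0.23 for Shank1. These are single arrays and carry no test. With the Actb 3' excess as a covariate the P3 changes of Shank1, Shank3 and Camk2a turned to -0.21, -0.39 and -0.39, none of them called. The changes of Homer1, Dlg2, Dlg3, Dlg4 and Dlgap1 at P3 and P6 stayed positive in every setting run. The smallest of them was 0.009, for Dlg4 at P3.

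Of 41 other postsynaptic scaffold and adaptor genes listed for comparison, 36 were measured. At P3, 9 were called higher and 7 lower, with a median change of 0.33, where 30.4% of all genes were called, 12.1% higher. At P6, 12 were higher and 4 lower, with a median of 0.52, where 22.5% of all genes were called, 10.2% higher. Over all probe sets 17.1% were called lower at P3 and 12.4% at P6, and the lower calls of this list lay near those shares. Cnksr2, a scaffold of Ras signalling, was higher by 2.001 ± 0.207 log2 units at P3 and 1.75 ± 0.21 at P6. Its E18 readings of 4.73 and 4.70 lay below the 25th percentile of those arrays (5.16 and 5.15). The glutamate receptor adaptor gene Grip2 was 3.68-fold and 3.76-fold higher, the actin regulator gene Abi2 2.37-fold and 2.49-fold, and Iqsec3, an exchange factor of Arf proteins, 2.34-fold and 2.97-fold, with limma adjusted p of at most 0.00762 for these 4 genes.

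Some scaffold genes were lower after E18. Tanc1, a repeat-rich scaffold that binds Dlg4, read 4.99 and 5.09 at P3, against 9.33 and 9.50 at E18, a difference of -4.38 ± 0.18 log2 units (limma adjusted p = 3.605e-05). Its P3 readings lay below the 25th percentile of those arrays (5.268 and 5.399), so no fold is given. Magi1, a widely expressed guanylate kinase scaffold, was 5.78-fold lower at P3 and 6.28-fold at P6. Iqsec1 was 2.40-fold lower at P3 (adjusted p = 0.00992) and differed by -0.34 ± 0.24 at P6. Homer3 and Cttnbp2 were 2.29-fold and 2.22-fold lower at P6 (adjusted p = 0.00641 and 0.0379). These falls stood beside the falls of progenitor and cycling-cell markers given above, whose part in them was not tested.

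Paralogues of the members, named here for their kinship with values already seen, went different ways. Dlg1, the family member also found in epithelia, read 9.16 and 8.88 at P3, against 10.09 and 10.13 at E18, and was 2.13-fold lower (-1.09 ± 0.23, limma adjusted p = 0.0146). At P6 it read 9.44 and 9.44 (-0.67 ± 0.23, adjusted p = 0.0835). Homer3 was called lower at both stages and Homer2 at neither (-0.17 ± 0.30 at P3 and -0.47 ± 0.30 at P6). Dlgap2, Dlgap3 and Dlgap4 were each called higher at P6, by 1.16 ± 0.25, 1.30 ± 0.26 and 1.30 ± 0.33 (adjusted p = 0.0185, 0.0138 and 0.0332), and at P3 none of the 3 was called.

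Of 29 listed relatives and regulators of CaM kinases and other postsynaptic kinases and phosphatases, 24 were measured. At P3, 12 were called higher and 1 lower, with a median change of 0.94, where 30.4% of all genes were called, 12.1% higher. At P6, 17 were higher and 1 lower, with a median of 1.52, where 22.5% of all genes were called, 10.2% higher. Camk4, a nuclear CaM kinase, was 13.97-fold higher at P3 and 17.2-fold at P6. Ptk2b, a calcium-responsive tyrosine kinase that acts at synapses, was 11.1-fold and 19.6-fold higher. Camkk2, which activates Camk4, was 4.57-fold higher at P3, and the calcineurin catalytic subunit gene Ppp3ca was 4.03-fold higher at P3. The protein kinase C gene Prkcb was 9.43-fold and the pseudokinase gene Camkv 8.60-fold higher at P6. For these 6 genes limma's adjusted p was at most 0.00104 where a fold is given.

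Genes of the other CaM kinase II subunits are named here with values already seen. Camk2b, the beta subunit that binds actin, read 10.85 and 10.59 at P3, against 8.64 and 8.71 at E18, and was 4.12-fold higher (2.04 ± 0.30, limma adjusted p = 0.00401). At P6 it was 5.10-fold higher than at E18 (adjusted p = 0.00217). Camk2d was called lower, with changes of -0.82 ± 0.16 at P3 and -0.90 ± 0.16 at P6 (adjusted p = 0.0124 and 0.00899), and Camk2g was called higher at P6 (1.21 ± 0.27, adjusted p = 0.0215) and not called at P3 (0.27 ± 0.27). Camk2a, as given above, was called at neither. Differences between the subunits were not tested.

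**Figure D5:**
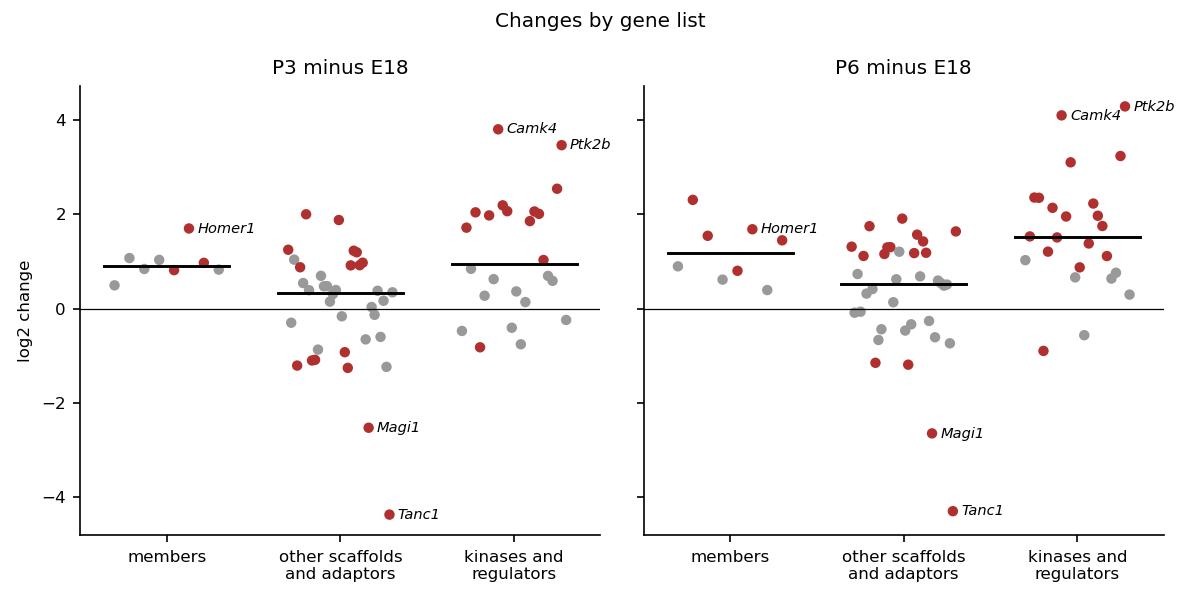
Log2 change at P3 (left) and P6 (right) relative to E18 of the brightest probe set of each gene, for the 8 measured members, 36 other scaffold and adaptor genes and 24 kinases and regulators; red marks an adjusted p below 0.05 and bars are medians. The members were all above 0, the other scaffolds lay on both sides, and Camk4 and Ptk2b had the highest changes.

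The genes whose profiles lay nearest to each member were found by the root mean square difference of mean-centred log2 values over the 6 arrays, among 13644 other genes with means at or above the 25th percentile (13645 for Shank1, which lay below it). Nearest to Homer1 were Sphkap, Dner and Agtpbp1, at 0.05, 0.06 and 0.08 log2 units. Nearest to Dlg2 were Syt5, Kcna1 and Kcng1 (0.08, 0.09 and 0.13), to Dlg3 Acan, Nav2 and Ahi1 (0.09, 0.09 and 0.10), and to Dlgap1 Fam3c, Rhob and Slc35f1 (0.04, 0.06 and 0.06). Camk2a had Slc4a8, Trim16 and St6galnac6 nearest (0.11, 0.12 and 0.14), Shank3 had Gabra2, Itga3 and Hjv (0.14, 0.16 and 0.17), Dlg4 had Crybb3, AW495222 and Hapln4 (0.12, 0.13 and 0.16), and Shank1 had Zbp1, Tmem249 and Gm33409 (0.04, 0.05 and 0.07). The points share 6 arrays, including those that stand apart, and the likeness is a description with no test.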

How the data were processed

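RNA from sorted corticothalamic neurons was measured on 6 arrays, 2 per stage. Each deposited column holds log2 expression per probe set, which the authors obtained by RMA according to the submitters' processing notes. Neither the RMA version nor whether all arrays entered 1 run is stated there, and the columns were used unchanged. Arrays have no read depth, and their number limits the precision. Gene symbols came from the platform annotation: of 45101 probe sets, 34945 had 1 symbol, 932 several and 9160 none, and 64 were controls. Entrez IDs of 34741 were found in RefSeq (GRCm38.p6), and 0 symbols needed updating.

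All 34945 probe sets with 1 symbol entered 1 fit of limma (version 3.58.1, R 4.3.3) over the 6 arrays (3 residual degrees of freedom), with an intensity trend and no filter on dim probe sets. Tests were two-sided, adjusted by Benjamini and Hochberg within each contrast with calls at adjusted p under 0.05. Changes are given with the SE of this fit. The fit was tested on simulated data. These had equal and independent spread on all 6 arrays, unlike the real pairs of arrays. The 27 probe sets were all kept, of which 5 lay in the lowest 25% by mean.

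Members and gene lists were chosen with earlier results of these data known. Named genes are all members, the 4 genes of smallest p in each direction among those called in each comparison list, and the 3 nearest profiles of each member. Homer2, Dlgap2, Dlgap3, Dlgap4, Camk2b and Camk2g fall outside that rule and were chosen as paralogues with their values already seen. Alternatives covered normalization, filters, 1 probe set per gene, the variance model, covariates and each array left out. List medians are descriptions with no test.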

Additional observations from a re-analysis of the deposited data

How the results depend on the processing

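The counts of called probe sets depended on the settings more than their direction did. The share over all features called in the same setting follows each count in parentheses. For P3 against E18 the main count of 9 (28.6%) became 2 of 7 genes with 1 probe set per gene (41.3%), 4 of 8 with the mean of a gene's probe sets (37%), 2 with the E18 arrays averaged (8.86%), 1 with the hybridization control level (9.75%) and 4 with the Actb 3' excess as a covariate (8.46%), and 1 to 14 with 1 array left out (8.73% to 47.2%). For P6 against E18 the count of 7 (21.1%) became 13 with array weights (33.9%), 12 with only the stages compared (31.4%), 2 with the E18 arrays averaged (8.87%), 2 with the hybridization control level (10.9%), and 1 to 12 with 1 array left out (8.77% to 31.4%). For P6 against P3 the count of 0 (0%) became 0 to 4 with 1 array left out (0% to 18%). For the difference of the intervals the count of 4 (12.1%) became 7 with quantile normalization (13.5%), 1 with 1 probe set per gene (22%), 1 with array weights (7.88%), 0 with the E18 arrays averaged (3.2%), 2 with the replicate block (8.95%), 1 with the hybridization control level (4.10%), 0 with the Actb 3' excess (0%), and 0 to 9 with 1 array left out (3.12% to 36.4%). The remaining planned settings kept each count within 1.5 times. Where they counted genes, the count is not on the scale of the 27 probe sets. For P6 against E18 these were 5 of 7 genes with 1 probe set per gene (31.7%). With the mean of a gene's probe sets they were 5 of 8 (26.6%), and 3 of 8 for the difference of the intervals (17%). No setting called a member probe set lower at P3 or P6 than at E18.

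Single members' signs turned only for values that were not called in the turned setting. With the Actb 3' excess as a covariate, P3 minus E18 was -0.207 for Shank1, -0.387 for Shank3 and -0.392 for Camk2a, P6 minus E18 was -0.085 for Shank1, and P6 minus P3 was 0.19 for Dlg4 and 0.122 for Shank1. P6 minus P3 was 0.166 for Homer1 and 0.034 for Dlgap1 without P3 replicate 1, 0.081 for Dlg4 without P3 replicate 2, and 0.072 for Homer1 and 0.047 for Dlgap1 without P6 replicate 2. Over the single arrays left out, P6 minus P3 reached -0.919 for Dlg4, -0.199 for Homer1 and -0.077 for Dlgap1 at the lowest. The cause of these shifts was not tested. Of all probe sets called for the difference of the intervals, 73.1% were positive as deposited and 58.4% after quantile normalization. The arrays with high 18S were left aside together only after the data had been seen.

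Replicate numbers gave no sign of pairing: the deviations of same-numbered arrays correlated at -0.173 between E18 and P3, 0.054 between E18 and P6 and -0.243 between P3 and P6. There is 1 difference per stage, and 18S was high on P3 replicate 2 and P6 replicate 1. These values therefore cannot tell whether the arrays were paired. With the replicate number as a block the counts were 8 for P3 against E18, 7 for P6 against E18, 0 for P6 against P3 and 2 for the difference of the intervals. The share of all probe sets called fell to 23.2% for P3 against E18, from 28.6% in the main fit. For P6 against E18 that share also fell below the main 21.1%. It was 0% for P6 against P3, and 8.95% for the difference of the intervals, against 12.1% in the main fit.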
